A study of Mus musculus with 8 samples.

Results

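The genes described here are transcripts that mark leukocytes, which are not a cell type that a culture of peritoneal mesothelial cells (MCs) is meant to hold. They were taken as a fixed list of 48 gene symbols, and a gene was used wherever the deposited expression table had a row under that symbol. Of the 48 genes, 38 had a row among the 13687 rows of the table, and 10 had none. The 38 comprised 8 genes of leukocytes in general, 2 adaptors of activating receptors, 16 surface or secreted products of monocytes and macrophages, 2 transcription factors, 2 subunits of the phagocyte oxidase, 5 genes of dendritic and antigen-presenting cells, 1 granulocyte gene and 2 B-cell genes. The genes without a row were Cd163, Aif1, Fcgr1, the monocyte chemokine receptors Ccr2 and Cx3cr1, the granulocyte gene S100a9, the mast cell genes Kit and Cpa3, and the T-cell genes Cd3e and Cd3g.

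Transcripts were sequenced from cultured MCs of 4 mice, 2 wild-type (WT) and 2 CAV1-/-, of the strain B6.Cg-CAV1tm1mls/J, the WT mice being littermates. MCs were released from the parietal peritoneum by enzymatic digestion and grown to confluence, and each mouse gave a culture kept static and a culture stretched for 24 h. This makes 8 libraries in 4 groups of 2 cultures: WT static, WT stretched, CAV1-/- static and CAV1-/- stretched. The CAV1-/- mice lack caveolin 1 in every cell, leukocytes included, so that the genotype of any leukocyte in a culture was that of its mouse. All genes of the list were compared between the genotypes, between static and stretched cultures, and between the 4 mice. The 2 cultures of a mouse are paired and are not replicates of a condition.

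Leukocytes are the blood-derived cells of the immune system, and CD45, encoded by Ptprc, is the phosphatase on the surface of nearly all of them. Macrophages live in the peritoneal cavity and wall, where they take up debris and microbes through scavenger and Fc receptors, digest them with lysozyme and cathepsins, and kill them with the superoxide of the phagocyte oxidase. Their identity rests on the transcription factor PU.1, encoded by Spi1, and their survival on the receptor for colony-stimulating factor 1, encoded by Csf1r. Macrophages adhere to culture plastic, whereas lymphocytes do not and are largely lost with the medium. Antigen presentation on MHC class II, by contrast, is shared by dendritic cells, B cells and activated macrophages.

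Values are given as TMM-normalized CPM, reads of a gene per 1000000 reads of a library after the trimmed mean of M values (TMM) scaling. Between 9777738 and 21203938 reads stood behind each library, the stretched libraries being the deeper ones, and 3 reads, taken as the smallest detectable amount, correspond to 0.146 to 0.308 TMM-normalized CPM. This floor covers counting error only. Cav1 was at 247 to 764 in WT cultures and at 12.8 to 34.5 in CAV1-/- cultures. Genes of the mesothelium had rows and reads in every library, with 8 of 8 genes of a mesothelial list found and a summed level of 1997 to 2871 in WT and 435 to 657 in CAV1-/- cultures. The libraries of every mouse stood apart from the rest in some genes, and those of CAV1-/- replicate 1 in the most. Of the 13665 genes tested, 12.2% lay above all other cultures in both of its libraries and 12.2% lay below. For each of the other mice the shares were 6.33% to 9.89% above and 6.09% to 9.45% below. Medians of the list and levels per length are therefore also given without CAV1-/- replicate 1.

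The sequences at the starts of 5 of these genes are shown first, because PU.1 recognises DNA by a short core sequence and many of these genes belong to cells that depend on it. They run from 250 bases before to 50 bases after the RefSeq gene start on GRCm38.p6, 5′ to 3′ on the strand of the gene, in lower case, with capitals where GAGGAAG or its reverse complement CTTCCTC occurs. The 5 were picked after values were seen, as 3 genes that hold the letters, as the gene with the highest values of all (Lyz2) and as an MHC class II gene. Promoters were found for 26 of the 38 genes.
Itgam, chr7:128062390-128062689, plus strand: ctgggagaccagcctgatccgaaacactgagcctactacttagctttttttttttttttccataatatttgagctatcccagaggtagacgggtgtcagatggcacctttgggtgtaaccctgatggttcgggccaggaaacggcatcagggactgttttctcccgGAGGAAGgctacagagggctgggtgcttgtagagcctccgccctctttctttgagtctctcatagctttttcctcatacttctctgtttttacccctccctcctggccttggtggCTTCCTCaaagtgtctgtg
Laptm5, chr4:130913066-130913365, plus strand: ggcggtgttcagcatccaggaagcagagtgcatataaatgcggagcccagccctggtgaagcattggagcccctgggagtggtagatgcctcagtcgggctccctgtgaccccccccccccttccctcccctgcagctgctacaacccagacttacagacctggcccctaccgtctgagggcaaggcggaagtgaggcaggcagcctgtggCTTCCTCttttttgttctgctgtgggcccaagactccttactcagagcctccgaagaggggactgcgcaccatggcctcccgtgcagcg
Ctss, chr3:95526536-95526835, plus strand: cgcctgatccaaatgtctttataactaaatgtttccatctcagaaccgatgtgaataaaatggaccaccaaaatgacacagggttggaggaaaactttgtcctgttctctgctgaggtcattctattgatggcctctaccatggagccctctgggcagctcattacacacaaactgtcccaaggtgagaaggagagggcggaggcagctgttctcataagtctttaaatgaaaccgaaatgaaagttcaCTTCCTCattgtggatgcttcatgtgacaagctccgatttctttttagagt
Lyz2, chr10:117282223-117282522, minus strand: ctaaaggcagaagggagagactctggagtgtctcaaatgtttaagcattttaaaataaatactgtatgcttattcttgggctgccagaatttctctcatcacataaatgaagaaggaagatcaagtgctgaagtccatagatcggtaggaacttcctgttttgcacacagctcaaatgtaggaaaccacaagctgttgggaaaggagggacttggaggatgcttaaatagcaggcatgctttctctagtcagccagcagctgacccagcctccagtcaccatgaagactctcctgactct
H2-Aa, chr17:34287774-34288073, minus strand: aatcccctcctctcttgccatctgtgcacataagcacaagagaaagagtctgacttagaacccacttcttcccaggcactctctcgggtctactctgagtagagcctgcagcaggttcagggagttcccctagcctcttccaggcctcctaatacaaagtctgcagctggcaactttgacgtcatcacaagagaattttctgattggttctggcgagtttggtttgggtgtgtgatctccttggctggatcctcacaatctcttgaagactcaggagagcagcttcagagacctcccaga
The letters occurred in the promoters of 10 of the 26 genes (38.5%), against 15.4% of the 27025 genes with a promoter in the RefSeq table. In Itgam, the integrin αM chain of complement receptor 3, they occurred 2 times, and in Laptm5, a lysosomal membrane protein of blood cells, and Ctss, the protease cathepsin S, once each. The windows of Lyz2, the lysozyme of macrophages, and of H2-Aa, an MHC class II chain, did not hold them. All 10 genes belonged to those described next as highest in CAV1-/- replicate 1, but so did 23 of the 26 genes with a promoter. A match is only a match of letters, and no binding was measured.

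Genes of leukocytes in general were detected in all 8 cultures, and all 8 of them had their highest levels in the 2 cultures of CAV1-/- replicate 1. Values are given for the static and then the stretched culture of each mouse. Ptprc (chr1:138062861-138175708, minus strand) was at 37.6 and 30.8 TMM-normalized CPM in CAV1-/- replicate 1, at 2.88 and 2.96 in CAV1-/- replicate 2, at 4.27 and 3.90 in WT replicate 1 and at 0.969 and 1.36 in WT replicate 2. The lower of the CAV1-/- replicate 1 cultures was thus 7.21 times the highest of the other 6, and CAV1-/- replicate 2 lay between the WT mice. In bulk RNA a larger number of leukocytes and more RNA of these genes per leukocyte cannot be told apart. Itgb2, the β2 integrin chain that pairs with Itgam and Itgax, was at 461 and 248 in CAV1-/- replicate 1, at 30.7 and 31.9 in CAV1-/- replicate 2, at 26.8 and 17.6 in WT replicate 1 and at 6.94 and 8.69 in WT replicate 2. Lcp1, the actin bundler L-plastin, was at 195 and 154 in CAV1-/- replicate 1, 17.1 and 18.8 in CAV1-/- replicate 2, 34.6 and 20.7 in WT replicate 1 and 9.69 and 9.36 in WT replicate 2. In both genes WT replicate 2 was the lowest mouse, and CAV1-/- replicate 2 stood above WT replicate 1 in Itgb2 and below it in Lcp1.

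Laptm5 was at 186 and 151 TMM-normalized CPM in CAV1-/- replicate 1, 14.3 and 15.6 in CAV1-/- replicate 2, 14.1 and 14.4 in WT replicate 1 and 4.28 and 4.93 in WT replicate 2. Rac2, a blood-cell protein that helps to assemble the phagocyte oxidase, was at 39.7 and 25.03, 3.70 and 3.34, 4.41 and 3.60 and 1.13 and 1.42 in the same order of mice. In Cd53, a tetraspanin of leukocytes, both CAV1-/- mice lay above both WT mice in either condition, as they did in Laptm5 and Itgb2. Its level was 89.2 and 60.4 in CAV1-/- replicate 1, 19.7 and 19.04 in CAV1-/- replicate 2, 6.93 and 11.8 in WT replicate 1 and 4.44 and 5.98 in WT replicate 2. The remaining genes of this group were Cd52, a small glycoprotein anchored in the leukocyte membrane, and Coro1a, the actin regulator coronin 1A. Cd52 was at 28.8 and 11.4 in CAV1-/- replicate 1 and between 0.888 and 4.16 elsewhere, and Coro1a at 7.50 and 5.63 and between 1.48 and 3.16, the smallest separation among the genes that were highest in this mouse (1.78 times).

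**Figure D1:**
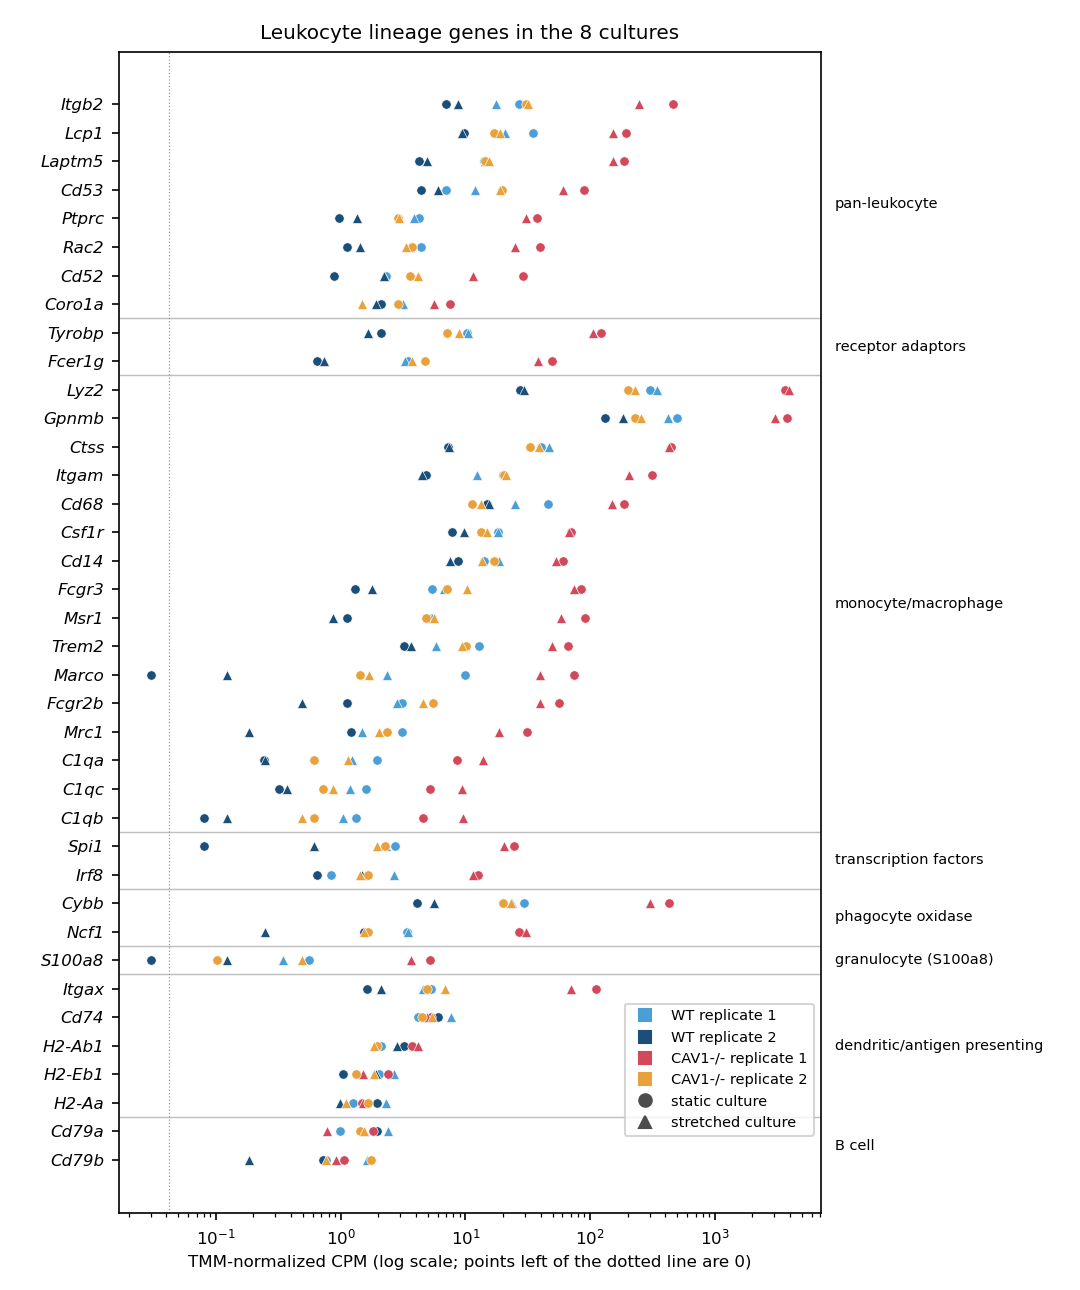
Level of each of the 38 genes in each of the 8 cultures, in TMM-normalized CPM on a log scale, with 1 colour per mouse, circles for static and triangles for stretched cultures, and points left of the dotted line at 0. In 32 of the 38 rows both red points (CAV1-/- replicate 1) lie to the right of the other 6, and the rows where they do not are Cd74, H2-Aa, H2-Ab1, H2-Eb1, Cd79a and Cd79b.

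The receptor adaptors Tyrobp (DAP12) and Fcer1g (the Fc receptor γ chain), which pass the signal of activating receptors of myeloid and natural killer cells to the kinase Syk, had the same pattern. Tyrobp was at 123 and 106 TMM-normalized CPM in CAV1-/- replicate 1, 7.09 and 8.92 in CAV1-/- replicate 2, 10.2 and 10.4 in WT replicate 1 and 2.10 and 1.66 in WT replicate 2. Fcer1g was at 49.9 and 38.3, 4.73 and 3.72, 3.498 and 3.25 and 0.646 and 0.739 in that order. CAV1-/- replicate 2 stood below WT replicate 1 in Tyrobp and above it in Fcer1g, and WT replicate 2 lay below both mice.

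All 16 monocyte and macrophage genes were highest in the 2 cultures of CAV1-/- replicate 1, and this group had the highest summed level of all. The sum was 8935 and 8183 TMM-normalized CPM in CAV1-/- replicate 1, 561 and 623 in CAV1-/- replicate 2, 981 and 917 in WT replicate 1 and 210.1 and 266 in WT replicate 2. Lyz2 (chr10:117277331-117282321, minus strand) made up much of it, at 3647.5 and 3920.2 in CAV1-/- replicate 1, 201 and 231 in CAV1-/- replicate 2, 302 and 345 in WT replicate 1 and 27.5 and 29.6 in WT replicate 2. The lower CAV1-/- replicate 1 culture was 10.6 times the highest other culture, the widest separation among the 38 genes. Reads of Lyz2 and of its close paralog Lyz1 can be exchanged in counting, and the split between them is uncertain.

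Gpnmb, a transmembrane glycoprotein of phagocytes loaded with lysosomal content that other adherent cells also make, was the other abundant transcript. Its level was 3792 and 3048 TMM-normalized CPM in CAV1-/- replicate 1, 231 and 254 in CAV1-/- replicate 2, 496 and 422 in WT replicate 1 and 130.4 and 184 in WT replicate 2. Here both WT replicate 1 cultures lay above both CAV1-/- replicate 2 cultures. Ctss, the cathepsin that trims the invariant chain, was at 442 and 429 in CAV1-/- replicate 1, 33.2 and 38.7 in CAV1-/- replicate 2, 40.0 and 46.9 in WT replicate 1 and 7.19 and 7.45 in WT replicate 2. Itgam was at 314 and 205, 20.5 and 21.2, 19.9 and 12.4 and 4.84 and 4.497 in that order. Cd68, a lysosomal membrane glycoprotein of macrophages, was at 188 and 149.6 in CAV1-/- replicate 1 and at 11.3 and 13.2 in CAV1-/- replicate 2, the lowest of the 4 mice, against 46.3 and 25.2 in WT replicate 1 and 15.02 and 15.5 in WT replicate 2.

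The other 11 genes of this group are the receptor Csf1r, the lipopolysaccharide co-receptor Cd14, the mannose receptor Mrc1, the scavenger receptors Msr1 and Marco, the Fc receptors Fcgr3 and Fcgr2b, the lipid sensor Trem2 and the complement genes C1qa, C1qb and C1qc. In them the lower CAV1-/- replicate 1 culture was between 2.83 times (Cd14) and 10.4 times (Msr1) the highest other culture. The Fc receptors have close paralogs, so that their counts may be shared between copies. Marco was listed at 0 in the static culture of WT replicate 2 and was under 3 reads in the stretched one, and C1qb was under 3 reads in both. The C1q genes, which encode the 3 chains of the first component of complement and adjoin each other on chromosome 4, were singled out after their values were seen. C1qa was at 8.57 and 13.9 in CAV1-/- replicate 1 and at 0.242 to 1.96 in the other cultures. C1qb was at 4.53 and 9.61 and at 0.0807 to 1.33, and C1qc at 5.19 and 9.32 and at 0.323 to 1.61. They were the genes in which the stretched CAV1-/- replicate 1 culture most exceeded the static one.

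Both transcription factors were low, and both were highest in CAV1-/- replicate 1. Spi1 was at 24.3 and 20.4 TMM-normalized CPM in CAV1-/- replicate 1, 2.26 and 1.97 in CAV1-/- replicate 2, 2.73 and 2.32 in WT replicate 1 and 0.0807 and 0.616 in WT replicate 2, the static value of the last being under 3 reads. Irf8, an interferon regulatory factor needed for monocytes and some dendritic cells, was at 12.5 and 11.5 in CAV1-/- replicate 1, 1.64 and 1.42 in CAV1-/- replicate 2, 0.839 and 2.66 in WT replicate 1 and 0.646 and 1.48 in WT replicate 2. The 6 cultures outside CAV1-/- replicate 1 overlapped between the genotypes in both genes.

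The phagocyte oxidase was represented by Cybb (gp91phox), its catalytic subunit in the membrane, and Ncf1 (p47phox), its cytosolic organizer. Cybb was at 425 and 299.9 TMM-normalized CPM in CAV1-/- replicate 1, 20.1 and 23.3 in CAV1-/- replicate 2, 29.3 and 23.6 in WT replicate 1 and 4.12 and 5.61 in WT replicate 2. Ncf1 was at 26.9 and 30.5, 1.64 and 1.53, 3.43 and 3.45 and 1.53 and 0.246 in that order. WT replicate 1 lay above CAV1-/- replicate 2 in both genes.

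The 5 genes of dendritic and antigen-presenting cells did not behave alike. Itgax, the integrin αX chain that is used as the CD11c marker of dendritic cells and is also made by macrophages, was at 110.4 and 70.7 TMM-normalized CPM in CAV1-/- replicate 1, 4.93 and 6.84 in CAV1-/- replicate 2, 5.32 and 4.54 in WT replicate 1 and 1.61 and 2.09 in WT replicate 2. Cd74, the MHC class II invariant chain, was instead at 5.27 and 4.90 in CAV1-/- replicate 1, within the range of 4.197 to 7.64 of the other cultures. The class II chains were at low levels in all mice. H2-Aa was at 1.48 and 1.504 in CAV1-/- replicate 1, 1.64 and 1.09 in CAV1-/- replicate 2, 1.26 and 2.32 in WT replicate 1 and 1.94 and 0.986 in WT replicate 2. H2-Ab1 was at 3.71 and 4.17 in CAV1-/- replicate 1 against 1.86 to 3.90 elsewhere, its stretched culture being the highest of the 8, and H2-Eb1 at 2.39 and 1.504 against 1.05 to 2.66. The mean of CAV1-/- replicate 1 over the mean of the other 6 cultures was 0.925 for Cd74, 0.97 for H2-Aa, 1.49 for H2-Ab1 and 1.08 for H2-Eb1, against 21.4 for Itgax.

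Of the granulocyte pair only S100a8, a calcium-binding protein of neutrophils and monocytes, had a row. Its level was 5.19 and 3.64 in CAV1-/- replicate 1, 0.103 and 0.493 in CAV1-/- replicate 2, 0.560 and 0.345 in WT replicate 1 and 0 and 0.123 in WT replicate 2, with under 3 reads in 3 of the 8 cultures. It was the 1 gene of the 38 that would not have reached a value of 1 in 2 of the 6 cultures outside CAV1-/- replicate 1. The B-cell receptor chains Cd79a and Cd79b were low in all mice. Cd79a was at 1.81 and 0.776 in CAV1-/- replicate 1, 1.44 and 1.53 in CAV1-/- replicate 2, 0.979 and 2.42 in WT replicate 1 and 1.94 and 1.54 in WT replicate 2. Cd79b was at 1.07 and 0.922, 1.75 and 0.766, 0.769 and 1.63 and 0.727 and 0.185 in that order. Neither gene was highest in CAV1-/- replicate 1, where their sum was 2.88 and 1.70 against 1.72 to 4.04 in the other 6 cultures. Kit and Cpa3 of mast cells and Cd3e and Cd3g of T cells had no row and were not analysed here.

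**Figure D2:**
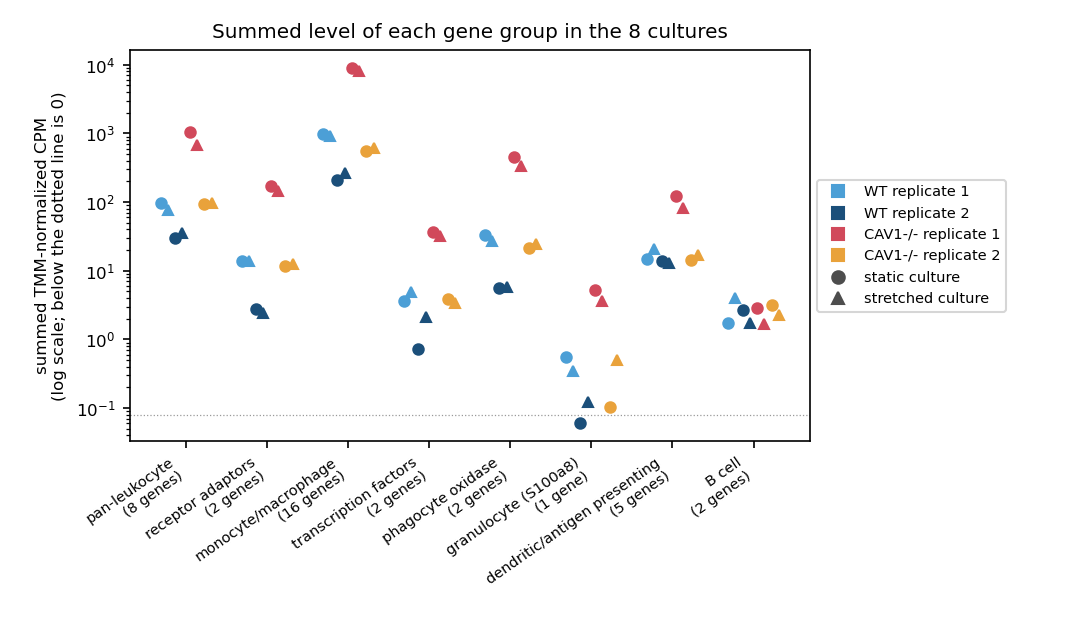
Summed level of the genes of each group in each culture, in TMM-normalized CPM on a log scale, with 1 colour per mouse, circles for static and triangles for stretched cultures, and the point below the dotted line at 0. CAV1-/- replicate 1 lies above the other mice in every sum except that of the B-cell pair, where all 8 points lie between 1.70 and 4.04. In the dendritic/antigen-presenting group only 1 of the 5 genes, Itgax, was highest in that mouse, and the granulocyte group is S100a8 alone.

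Levels of different genes can be compared only per length. Divided by the summed exon length in kb, the mean over the 8 cultures was highest for Lyz2 (827 TMM-normalized CPM per kb), Gpnmb (164), Ctss (96.1), Tyrobp (50.5), Cd68 (46.1) and Itgb2 (34.1). Cybb stood at 17.9, Csf1r at 4.76, Spi1 at 2.54 and Ptprc at 0.578 on this scale. Without CAV1-/- replicate 1 the order changed below the first 3 genes. The mean over the other 6 cultures was 144 TMM-normalized CPM per kb for Lyz2, 43.9 for Gpnmb, 21.3 for Ctss, 16.8 for Cd68, 10.1 for Tyrobp, 7.68 for Cd14 and 6.70 for Itgb2. In single cultures the order differed again, and in the stretched culture of WT replicate 2 Gpnmb (28.2) lay above Lyz2 (22.5). Over all 8 cultures the class II chains stood at 0.402 to 1.16 per kb and the B-cell chains at 0.683 and 1.07. Exon lengths were summed over all annotated transcripts, which lowers the level of a gene with many of them, such as Ptprc.

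Across the list, the highest levels were found in 1 mouse. Both cultures of CAV1-/- replicate 1 lay above all other 6 cultures in 32 of the 38 genes, against 12.2% of all genes tested. S100a8, counted among the 32, met the filter only through this mouse, so its place in the count was fixed. No gene of the list had both cultures of any other mouse above the rest, where the share of all genes tested was 6.33% for WT replicate 1, 8.9% for WT replicate 2 and 9.89% for CAV1-/- replicate 2. Over the 32 genes, the lower CAV1-/- replicate 1 culture was 1.78 to 10.6 times the highest other culture, with a median of 6.32. The mean of this mouse over the mean of the other 6 cultures was 2.89 to 22.0, with a median of 13.9. The 32 genes were chosen by lying above, so ratios over 1 were fixed in advance. Over all 38 genes the 2 medians were 5.06 and 12.2. The count was 32 also after median-of-ratios rescaling and after quantile normalization.

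**Figure D3:**
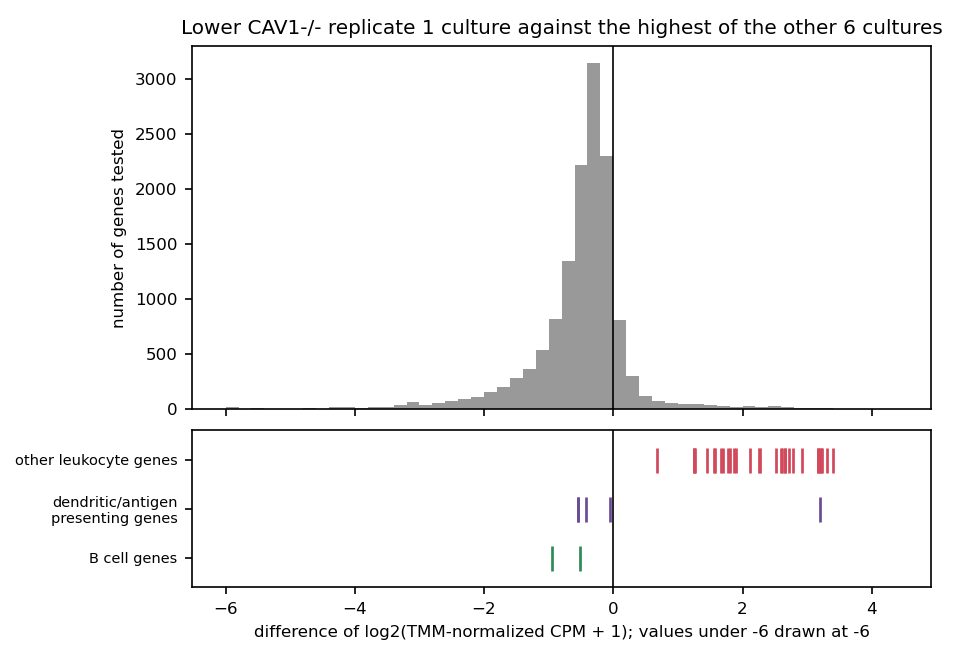
Difference on the log2(TMM-normalized CPM + 1) scale between the lower CAV1-/- replicate 1 culture and the highest of the other 6 cultures, as a histogram of the 13665 genes tested (above) and as 1 tick per gene of the list (below). The median was -0.38 for all genes and 2.01 for the 38, and the class II genes, Cd74 and the B-cell genes lie left of 0.

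On the log2 scale, the lower CAV1-/- replicate 1 culture exceeded the highest other culture by more than 2 in 133 of all genes tested, and 19 of these were of the list. The other mice also differed in these genes. WT replicate 2 had both of its cultures below all other 6 in 28 of the 38 genes, against 8.82% of all genes tested. Both WT replicate 1 cultures lay above both WT replicate 2 cultures in 32 genes, against 27.6% of all genes. Ranked by the mean of the 2 cultures, the mice stood in the order CAV1-/- replicate 1, WT replicate 1, CAV1-/- replicate 2 and WT replicate 2 in 21 genes, and with the middle pair exchanged in 10 more. The share of all genes tested with either order was not worked out, so these counts only describe the list. The median ratio of WT replicate 1 to WT replicate 2 over the genes highest in CAV1-/- replicate 1 was 3.88 in static culture (30 genes with a value above 0) and 2.90 on stretch. The median ratio of CAV1-/- replicate 1 to CAV1-/- replicate 2 was 13 in static culture and 10.0 on stretch (32 genes). Over all 38 genes, not chosen by this order, it was 11.1 and 8.88.

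CAV1-/- replicate 2, the other mouse of the genotype, stood above both WT mice about as often in these genes as in all genes. In static culture it exceeded both WT cultures in 12 of the 38 genes, a share close to the 34.2% of all genes tested, and on stretch in 13, against 32.5% of all genes. Laptm5, Cd53, Cd52, Itgb2, Fcer1g, Itgam, Fcgr3 and Fcgr2b were those above both WT mice in either condition, and Cd68, Gpnmb, Lyz2, Ctss and Cybb were not.

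Levels of other cell types were measured beside these. The summed mesothelial list was 624 and 566 in CAV1-/- replicate 1 and 657 and 435 in CAV1-/- replicate 2, so these sums overlapped. Single genes of it differed between the CAV1-/- mice in both directions. Msln was at 209 and 193 in CAV1-/- replicate 1 and at 38.04 and 20.36 in CAV1-/- replicate 2. Krt19 was also higher in CAV1-/- replicate 1, at 48.95 and 69.4 against 2.67 and 4.38. Upk3b was lower there, at 13.2 and 3.15 against 111 and 49.5, as was Wt1, at 84.97 and 74.9 against 138 and 118. The sum of the 38 leukocyte genes was 10773 and 9465 in CAV1-/- replicate 1 and 711 and 781 in CAV1-/- replicate 2. In WT replicate 1 the leukocyte sum was 1144 and 1065 and that of WT replicate 2 was 266 and 327. The fibroblast list (7 of 7 genes, led by Col1a1 and Col3a1) was lowest in CAV1-/- replicate 1, at 8704 and 8460.0, and stood at 11236.5 and 9059.5 in WT replicate 1, 17746 and 13154 in WT replicate 2 and 20224 and 17933 in CAV1-/- replicate 2. A muscle list (5 of 6 genes found) followed the same order of mice as most leukocyte genes, with 1889 and 2186 in CAV1-/- replicate 1, 828 and 1018 in WT replicate 1, 384 and 406 in CAV1-/- replicate 2 and 197 and 209 in WT replicate 2. Its part in the result was not tested.

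Set against the leukocyte genes in general, the lineage genes were not present in 1 ratio in all mice. The macrophage sum was 855% and 1192% of the sum of the 8 general genes in CAV1-/- replicate 1, 591% and 640.2% in CAV1-/- replicate 2, 1027% and 1185% in WT replicate 1 and 690.2% and 742% in WT replicate 2. Lyz2 alone was 349% and 571% of the general sum in CAV1-/- replicate 1 and 90.2% and 82.5% in WT replicate 2. Csf1r was instead highest relative to the general genes in WT replicate 2 (25.7% and 27.0%) and lowest in CAV1-/- replicate 1 (6.72% and 9.78%). Cd74 was 0.505% and 0.714% of the general sum in CAV1-/- replicate 1 and 19.6% and 14.6% in WT replicate 2. The B-cell pair was 0.276% and 0.247% in the former and 8.75% and 4.81% in the latter. For Cd74 and the B-cell pair these shares mostly follow the general sum by which they are divided. That sum was 1045 and 687 in CAV1-/- replicate 1 and 30.4 to 97.3 elsewhere. Cd74 itself stayed between 4.197 and 7.64 and the B-cell pair between 1.70 and 4.04 in all cultures.

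The comparison of CAV1-/- with WT MCs asked how loss of caveolin 1 changes the transcriptome. For the leukocyte genes it gave large differences with large errors. In static culture the median log2 difference of the 38 genes was 1.86, against -0.01 over all genes tested, and 36 of the 38 were higher in the CAV1-/- mean, yet the median standard error was 1.297. Differences are on the log2(value + 1) scale, which understates those of low genes. Ptprc differed by 1.93 ± 1.39 (log2 ± SE) and Lyz2 by 3.21 ± 2.18, with adjusted p = 0.827 and 0.817 by limma. For Itgb2 the difference was 3.03 ± 1.51 (limma adjusted p = 0.709), and for Gpnmb 1.88 ± 1.67 (limma adjusted p = 0.866). Cd74 differed by -0.03 ± 0.25 (limma adjusted p = 0.993), with a smaller error than any of these.

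By limma, 0 of the 38 genes passed the adjusted threshold of 0.05 in static culture, against 0.0732% of all genes tested. At an unadjusted p under 0.05 there were 2, against 8.17% of all genes, namely Cd53, with a log2 difference of 2.72 ± 0.83 (limma adjusted p = 0.427), and Cd52, with 2.23 ± 0.90 (limma adjusted p = 0.599). The quasi-likelihood test of edgeR passed 0 of 38 (0.0146% of all genes), with 3 at an unadjusted p under 0.05 against 7.99% of all genes, and DESeq2 passed Cd53 and Cd52 (2.26% of all genes). The CAV1-/- cultures lay above both WT cultures in 12 genes, against 16.1% of all genes, and below both in 0, against 20.8%. Without CAV1-/- replicate 1 the median log2 difference was 0.47 (37 genes, S100a8 falling under the filter), and without CAV1-/- replicate 2 it was 3.495. Gpnmb stood at -0.14 without CAV1-/- replicate 1, in the opposite direction. The other genes followed in this way kept their direction with any culture or mouse left out. Their lowest differences were 1.12 for Lyz2, 1.09 for Itgb2, 0.764 for Cybb, 0.546 for Itgax and 0.268 for Ptprc.

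On stretch the comparison gave a median log2 difference of 1.77 over the 38 genes, against 0 over all genes, and 33 of 38 were higher in the CAV1-/- mean. No gene passed by limma (0.0585% of all genes), and 0 had an unadjusted p under 0.05, against 6.26%. By edgeR 0 passed (0.0439% of all genes) and 1 had an unadjusted p under 0.05, against 6.46% of all genes, and by DESeq2 0 passed (1.73%). The groups did not overlap in 13 genes with CAV1-/- higher, against 14.6% of all genes, and in 2 with CAV1-/- lower, against 15.9%. Lyz2 differed by 3.21 ± 2.18 (limma adjusted p = 0.958), Itgb2 by 2.76 ± 1.51 (limma adjusted p = 0.914) and Cd53 by 1.89 ± 0.83 (limma adjusted p = 0.851). Without CAV1-/- replicate 1 the median was 0.38 (37 genes), and without CAV1-/- replicate 2 it was 3.19. The stretched and static comparisons use cultures of the same 4 mice.

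The comparison of stretched with static cultures asked how cyclic stretching changes MCs, and none of the 38 leukocyte genes passed the test in either genotype. In WT MCs the median log2 difference of stretched against static cultures was 0.02 over the 38 genes, against -0.02 over all genes, and in CAV1-/- MCs it was -0.12, against -1.93e-05. By limma, 0 of 38 genes passed in either genotype (0% of all genes in each), and 0 had an unadjusted p under 0.05, against 2.27% of all genes in WT and 2.09% in CAV1-/- MCs. The quasi-likelihood test of edgeR also passed 0 in both genotypes (0% of all genes in each) and gave 0 at an unadjusted p under 0.05 (2.22% of all genes in WT and 2.16% in CAV1-/- MCs), and DESeq2 passed 0 (0.022% of all genes in WT and 0.0512% in CAV1-/- MCs). With the mouse as a block, which pairs its static and stretched culture, limma again passed 0. At an unadjusted p under 0.05 the blocked fit gave 3 genes in WT MCs, Cd53 and Irf8 with higher and Mrc1 with lower values on stretch, against 14.5% of all genes, and 1 in CAV1-/- MCs, C1qa with higher values, against 13.3%. In WT MCs the stretched cultures lay above both static ones in 1 gene, Irf8 (13.9% of all genes), and below both in 0 (17.2%). In CAV1-/- MCs they lay above in 0 (12.4%) and below in 1, Cd79b (11.9%). Both genes are named after their values were seen. For the interaction of genotype with stretch the median was -0.15, and 0 genes passed by limma (0% of all genes), 0 at an unadjusted p under 0.05 (0.483%). By edgeR and by DESeq2 it passed in 0 genes (0% of all genes in each), and edgeR gave 0 at an unadjusted p under 0.05 (0.483%). With the mouse as a block 0 passed the interaction by limma, and Cd53 and Irf8 had an unadjusted p under 0.05, against 4.25% of all genes. The stretched culture was the higher in both WT mice and the lower in both CAV1-/- mice in 2 of the 38 genes, Cd53 and Irf8, against 4.11% of all genes, and the reverse held in 0, against 4.87%.

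Within mice the direction of the stretch difference was not shared. In CAV1-/- replicate 1 the stretched culture was lower in 31 of 38 genes, against 50% of all genes tested, with a median ratio of stretched to static of 0.800. Itgb2 stood at a ratio of 0.538, Itgax at 0.640, Cybb at 0.706 and Cd52, the lowest, at 0.396. Lyz2 (1.07), Ncf1 (1.13), C1qa (1.62), C1qb (2.12) and C1qc (1.79) were the genes of the 32 with a ratio above 1. The stretched culture was the higher in 23 of 38 genes in CAV1-/- replicate 2 (49.1% of all genes) and in 22 of 36 in WT replicate 2 (48.1%), and the lower in 22 of 38 in WT replicate 1 (53.4%). Each of these compares a single pair of cultures and has no replicate check. Marco had a ratio of 0.240 in WT replicate 1, 0.532 in CAV1-/- replicate 1 and 1.18 in CAV1-/- replicate 2.

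**Figure D4:**
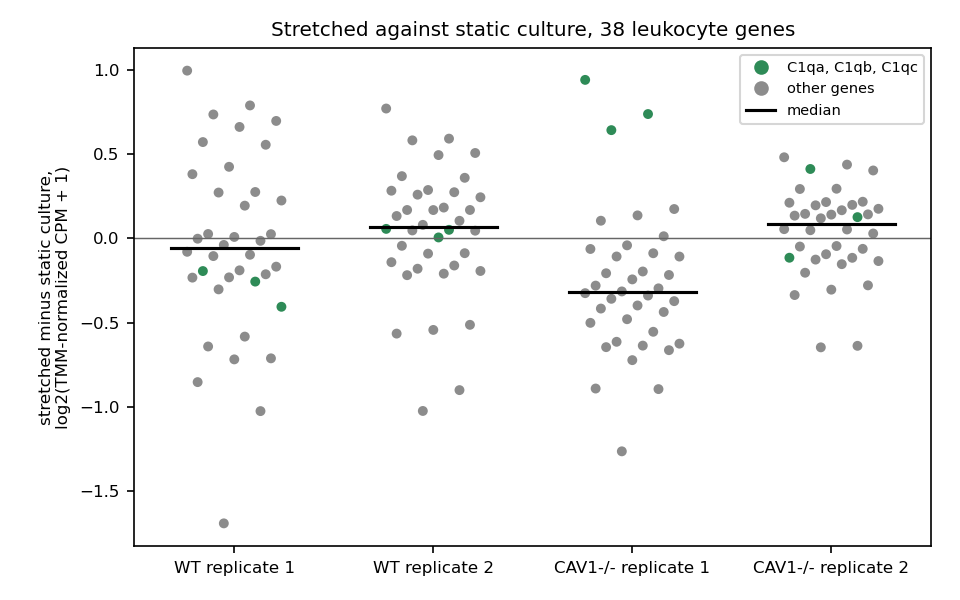
Stretched minus static culture of each mouse on the log2(TMM-normalized CPM + 1) scale, 1 point per gene of the list, with the median of the 38 genes as a bar and the C1q genes in green. In CAV1-/- replicate 1 most points lie below 0 (31 of 38) and the C1q genes above, and in the other mice the points lie on both sides.

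Further genes of each lineage were read from lists outside the 48. Of 20 other genes of leukocytes in general, all had a row and 17 had both CAV1-/- replicate 1 cultures above the rest, and of 25 of 30 other macrophage genes with a row, 20 did, against 12.2% of all genes. Cd48, Fgr, Cytip, Ly86, Pld4 and Cd5l reached a value of 1 only in CAV1-/- replicate 1. Was did so there and in the stretched culture of CAV1-/- replicate 2 (1.04). These genes met the filter of a value of 1 in 2 cultures only through CAV1-/- replicate 1, so their place in these counts was fixed by it. Among the 4 macrophage genes with the highest means, Mmp12, the macrophage elastase, was at 1617 and 959.8 TMM-normalized CPM in CAV1-/- replicate 1 and at 26.5 to 186 elsewhere. Lgals3, the galectin of macrophages and many other cells, was at 550.4 and 388 in CAV1-/- replicate 1 and at 77.4 to 323 elsewhere, and Sirpa, the receptor for CD47, at 175 and 116 and at 54.1 to 95.6. Spp1, the secreted osteopontin, which other adherent cells also make, was an exception, with 562 and 626 in CAV1-/- replicate 1 and 947 and 1665 in CAV1-/- replicate 2. Arhgdib and Lsp1, the highest of the general genes, were not highest in CAV1-/- replicate 1 either.

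Lists of other lineages held few genes with a row. Of 14 other dendritic genes 5 had one and 2 were highest in CAV1-/- replicate 1, Clec9a and H2-DMa. Clec9a, a receptor for dead cells on conventional dendritic cells, was at 10.7 and 8.73 against 0 to 0.617 elsewhere. H2-DMa was barely apart, at 2.72 and 2.77 against 0.979 to 2.61. Zbtb46, the transcription factor of conventional dendritic cells that endothelial cells also make, was at 7.42 and 6.50 in CAV1-/- replicate 1, the lowest of the 4 mice in both conditions. Of 14 other granulocyte genes 3 had a row, and Mmp8, the neutrophil collagenase, was the 1 highest in CAV1-/- replicate 1, while Mmp9, a gelatinase of many cells, was highest in CAV1-/- replicate 2. Of 9 other mast cell genes 2 had a row and 0 were highest there. Of 12 other T-cell genes 6 had a row and 2 were highest there, Il7r, the interleukin 7 receptor, at 44.6 and 27.2 against 0.727 to 4.38 elsewhere, and Lat, an adaptor of T-cell and mast cell receptors. Of 9 other B-cell genes 3 had a row and 1 was highest there, Cd22, an inhibitory lectin, at 13.8 and 13.5 against 0.565 to 2.10, while Ighm and Ms4a1, which define B cells, were at 3.05 and 2.81 and at 0.742 and 0.873. None of 8 natural killer genes had a row. Of 8 genes of resident peritoneal macrophages 5 had a row and 3 were highest in CAV1-/- replicate 1, Lyz1, Naip1 and Icam2. Lyz1 can exchange reads with Lyz2. Naip1, at 6.10 and 3.69 in CAV1-/- replicate 1, and Icam2, at 2.55 and 1.21, reached a value of 1 in no other mouse. Both met the filter only through CAV1-/- replicate 1, which fixed where they were highest. Of the remaining ones, Selp, the adhesion molecule P-selectin that platelets and endothelium also make, was at 6.02 and 3.44 TMM-normalized CPM in CAV1-/- replicate 1, 2.88 and 0.985 in CAV1-/- replicate 2, 12.7 and 11.9 in WT replicate 1 and 4.93 and 3.14 in WT replicate 2, so that WT replicate 1 was the highest. Garnl3 was at 4.203 and 4.46 in CAV1-/- replicate 1, within the 2.71 to 6.06 of the other cultures. Clec9a and Lat also met the filter only through CAV1-/- replicate 1.

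**Figure D5:**
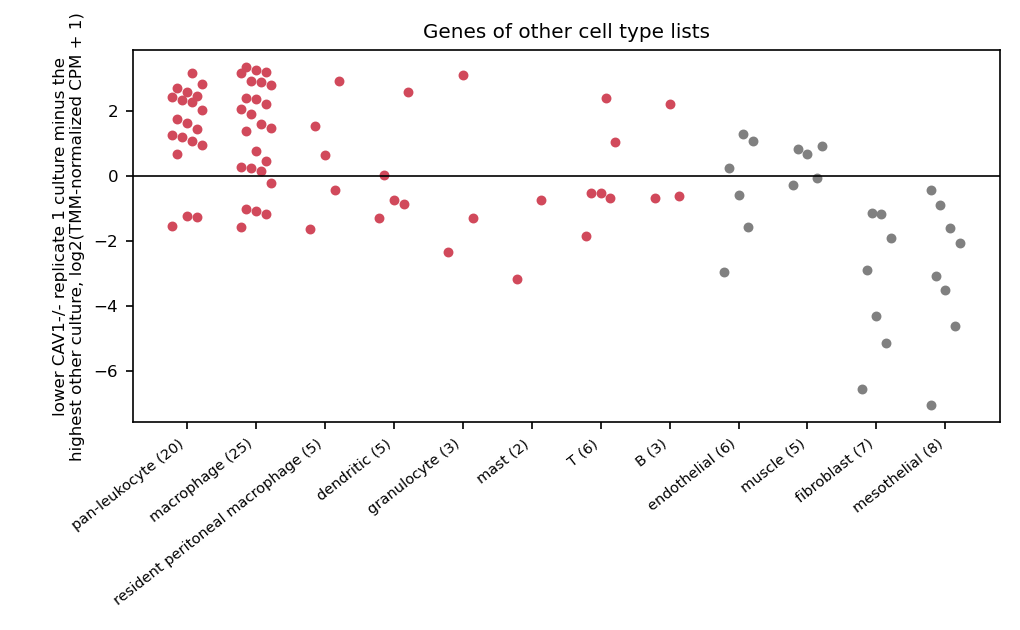
Genes outside the 48, by cell type list, with the number of genes that had a row in brackets, as the lower CAV1-/- replicate 1 culture minus the highest other culture on the log2(TMM-normalized CPM + 1) scale. Most general leukocyte (17 of 20) and macrophage genes (20 of 25) lie above 0, and the fibroblast and mesothelial genes below. Muscle genes (3 of 5 above 0) and endothelial genes (3 of 6) lie on both sides. Of the endothelial ones above 0, Cdh5 and Emcn met the filter only through CAV1-/- replicate 1.

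The genes outside the list whose pattern was most like it were the 15 with the largest such difference, measured over the 8 cultures as a description. They were Ccl6, Arg1, Clec4n, Mpeg1, Pla2g7, Wfdc17, Slc11a1, Csf2rb, Emr1, Cd84, Mmp8, Cd36, Lyz1, Clec4d and Ms4a6d, with log2 differences of 3.75 down to 2.90. Ccl6, a chemokine of myeloid cells, was at 919 and 686 TMM-normalized CPM in CAV1-/- replicate 1, 49.8 and 50.1 in CAV1-/- replicate 2, 24.2 and 24.8 in WT replicate 1 and 1.29 and 0.678 in WT replicate 2. Arg1, the arginase of some activated macrophages, was at 179 and 150.1, 10.4 and 12.7, 6.23 and 9.57 and 0.888 and 0.862 in that order. Emr1, which encodes the macrophage antigen F4/80, was at 131 and 104 in CAV1-/- replicate 1, 7.71 and 6.62 in CAV1-/- replicate 2, 10.6 and 8.83 in WT replicate 1 and 1.13 and 1.23 in WT replicate 2. WT replicate 2 was the lowest mouse in all 3. Among the 50 genes with the largest difference 13 were of the list, and among the largest 100 there were 18.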

How the data were processed

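RNAseq of 8 cultures of primary mouse MCs was analysed, 1 static and 1 stretched culture from each of 2 WT and 2 CAV1-/- mice. After adaptor removal with Cutadapt, the authors aligned reads to GRCm38 transcripts and quantified genes with RSEM, and the deposited signal is that estimate after TMM normalization in edgeR, as CPM. Every value was a whole number of reads times a constant of its library (100% within 0.01 read), so reads were recovered (9777738 to 21203938 per library). The library kit does not mark strand, and overlapping genes can share reads. Rows without a gene symbol (88) were kept in the tests.

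Genes that reached 1 in no fewer than 2 of the 8 libraries (13665) were fitted together by limma (version 3.58.1, R version 4.3.3) on log2(value + 1), with 1 mean per group, without a replicate block and with a trend on intensity. P-values were adjusted by Benjamini-Hochberg over all of them, and the threshold was an adjusted p of 0.05. Since the deposited values are normalized, limma replaced the authors' edgeR test. The quasi-likelihood test of edgeR (version 4.0.16) and DESeq2 (version 1.42.0) were run on the recovered reads as alternatives, beside other pseudocounts, filters, scalings, a replicate block, and each culture or mouse left out. The limma and edgeR fits were also run on simulated counts of independent libraries with no difference between mice. That run cannot tell how they behave under the spread between mice found here. The labels pair the static and stretched culture of a mouse, and their deviations from the group means correlated across genes (Pearson's r 0.703 in WT, 0.850 in CAV1-/- MCs). P-values of the fits without a block rest on the spread between the 2 cultures of each group, which come from 2 mice per genotype. These fits treat the static and stretched culture of a mouse as independent. With the mouse as a block, P-values for stretch rest on how far its stretch difference varies between mice.

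The 48 genes and the other lists were chosen with earlier results of these data known, so no list was tested, and lists are described by counts and medians beside all genes. Values are given in full for Ptprc, for up to 5 genes of each group with the highest means and for groups of 1 to 3. Genes of the other lists are named among the 4 with the highest mean. Icam2 and H2-DMa were named beyond this rule after their values were seen, as were the genes named for meeting the filter only through CAV1-/- replicate 1. Positions are from GENCODE M21 (GRCm38), in which 13597 identifiers were found, and promoters from RefSeq on GRCm38.p6. GAGGAAG was searched on both strands.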

Additional observations from a re-analysis of the deposited data

Results flagged for a closer look

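In 2 of the 38 genes the stretched culture was higher in both WT mice and lower in both CAV1-/- mice, against 4.11% of all genes tested, and the reverse held in 0 (4.87%). Cd53 differed by 0.70 and 0.36 on the log2(value + 1) scale in the WT mice and by -0.55 and -0.05 in the CAV1-/- mice, a difference between the genotypes of -0.83 ± 1.17 (SE). Irf8 differed by 0.99 and 0.59 in the WT mice and by -0.11 and -0.13 in the CAV1-/- mice, a difference of -0.91 ± 1.40. Both were picked out by their direction alone, which was not tested. The interaction term of limma gave an adjusted p of 1.00 for each, and with the mouse as a block 0.947.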

How the results depend on the processing

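The number of leukocyte genes that passed at an adjusted p under 0.05 was 0 in the 5 comparisons by limma. It was also 0 with every culture and every mouse left out, with pseudocounts of 0.1 and 5, without a filter, with a mean of at least 5, after median-of-ratios rescaling or quantile normalization, and by edgeR, and with only the 4 libraries of a comparison in the 4 comparisons other than the interaction, which needs all 8. DESeq2 passed 2 for CAV1-/- against WT in static culture. With a replicate block, 3 genes passed in static culture (Lyz2, Ctss and Cd53, against 1.8% of all genes tested) and 2 on stretch (Lyz2 and Ctss, against 0.805%). The block there pairs mice by a shared number, not by a label, and the deviations of same-numbered mice correlated at 0.522 and 0.484 across genes. For stretch and the interaction the block is the mouse, and 0 passed. A mean of at least 5 kept 27 genes of the list. Leaving out a CAV1-/- replicate 1 culture or that mouse put S100a8 under the filter, which left 37 genes. For CAV1-/- against WT in static culture, the median log2 difference ranged from 0.470 to 3.495 with single libraries or mice left out. On stretch it ranged from 0.380 to 3.19, in both cases lowest without CAV1-/- replicate 1 and highest without CAV1-/- replicate 2. For stretch it ranged from -0.675 to 0.654 in WT and from -1.71 to 1.299 in CAV1-/- MCs, and for the interaction from -1.73 to 1.49. Gpnmb turned to -0.14 in static culture and -0.13 on stretch without CAV1-/- replicate 1 (range up to 3.89 and 3.45). Ptprc, Itgb2, Lyz2, Cybb and Itgax, the other genes followed, kept their direction throughout. Ptprc came lowest among them, at 0.268 in static culture and 0.220 on stretch. With 2 mice per genotype these comparisons can separate only differences well above the spread between mice.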

Other observations

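Several genes of other cell types differed between the mice in their own way. Ms4a2, the β chain of the high-affinity IgE receptor of mast cells, was at 17.2 and 28.4 TMM-normalized CPM in WT replicate 1, at 2.31 and 5.63 in CAV1-/- replicate 1, at 0.646 and 0.370 in WT replicate 2 and at 0.308 and 0.109 in CAV1-/- replicate 2. Gata2, which mast cells share with endothelial and other cells, was at 13.01 to 32.1 in all cultures and lowest in WT replicate 1 among the static ones. Pf4, the platelet chemokine that macrophages can also make, was at 148 and 95.3 in CAV1-/- replicate 1 and at 1.62 to 13.3 elsewhere, while the α-globin gene Hba-a2 was at 3.33 to 7.64 in all cultures. Thy1, which T cells share with fibroblasts, was highest in WT replicate 2, at 219.7 and 223. Among endothelial genes, Vwf was at 10.6 and 12.5 in CAV1-/- replicate 1 and at 1.60 to 3.71 elsewhere, whereas Kdr was lowest there, at 7.75 and 9.12, against 32.3 to 66.0 elsewhere. Fabp4, a fatty acid carrier of adipocytes, endothelium and macrophages, was at 28.6 and 26.6 in CAV1-/- replicate 1 and at 3.12 to 9.09 elsewhere.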
